A study of Argopecten irradians irradians x Argopecten purpuratus with 6 samples.

Results

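Of 29249 genes measured by RNA-seq in scallop adductor muscle, 300 formed a set whose expression divided the 6 sequenced pools in a way that cut across muscle colour. Their FPKM (fragments counted on a gene per kilobase of its length and per library depth) was higher in orange 1, white 1 and white 3 than in orange 2, orange 3 and white 2, or the reverse. These libraries are called set A (orange 1, white 1 and white 3) and set B (orange 2, orange 3 and white 2) hereafter. The genes were chosen on these same values. A gene from the genome annotation had to average at least 1 FPKM, to reach at least 0.1 FPKM in every library and to lie outside the 100 most abundant genes. The lowest value of one set had to be at least 1.5 times the highest value of the other, a ratio called the gap. There were 11511 genes that met the other conditions, called eligible genes below, and 316 of them passed the gap, of which the 300 with the largest gaps were kept. No sample label divides the libraries into sets A and B. The difference between the sets is therefore a description with no test, and no value was averaged over a set.

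The orange libraries came from QN Orange scallops and the white libraries from Bohai Red scallops, strains derived from hybrids of Argopecten irradians irradians and Argopecten purpuratus. The labels give Bohai Red as the name of every sample, and only the study's methods assign the orange muscles to QN Orange. All animals were 1 year old, none is described as treated, and there were 3 libraries per colour. Each library was made from 3 pooled muscles, so that a value belongs to a pool and not to an animal, and the reads were aligned to the genome of the bay scallop, 1 parent of the hybrids. The labels mention tanks as the source of the RNA without tying a library to a tank, so that a tank effect cannot be told apart from the division described here.

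The adductor muscle closes the shell. Its striated part drives fast closure and swimming, and its smooth part holds the valves shut for long periods at little cost. A whole-muscle extract also holds RNA of nerve, connective tissue and haemolymph cells. In such bulk samples, fewer cells of a type and less RNA per cell cannot be told apart. The identifiers carry no gene names or functions in the sources used here, so the tissue could not be checked against markers and the genes are described by identifier, level and place on the contigs of the assembly.

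The libraries held between 27564653 reads on genes in white 2 and 36093567 in orange 3, with the libraries of set A between these. The 100 most abundant genes took 52.5% to 56.4% of all FPKM in set A and 56.3%, 62.1% and 60.0% in orange 2, orange 3 and white 2. Median-ratio size factors, which would bring the libraries to 1 level over most genes, were 0.974, 1.15 and 1.11 in orange 1, white 1 and white 3 and 1.06, 0.862 and 0.925 in orange 2, orange 3 and white 2. A high share for a few genes lowers the FPKM of all others, and its part in the division was not tested. With the libraries scaled by these factors 292 genes passed the gap and 227 of the 300 were among them.

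The division was lopsided. Of the 316 genes past the gap, 284 were high in set A and 32 in set B, which is 2.75% of the eligible genes in all, 2.47% in the first direction and 0.278% in the second. The same gap between the colours, with all orange values above all white values or the reverse, was passed by 383 genes or 3.33%. After median-ratio scaling the split between sets A and B was 214 to 78, so that the share of genes high in set A was 73.3% instead of 89.9%. The 300 genes kept were 273 high in set A and 27 high in set B. At larger gaps the genes high in set A outnumbered those high in either colour taken alone. A gap of at least 2 was found for 124 genes high in set A, 2 high in set B, 58 high in orange and 78 high in white. A gap of at least 5 was found for 22 genes high in set A, 0 high in set B, 9 high in orange and 4 high in white muscle. This count holds only for genes with at least 0.1 FPKM in every library, a condition that removes genes near 0 in one colour.

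**Figure D1:**
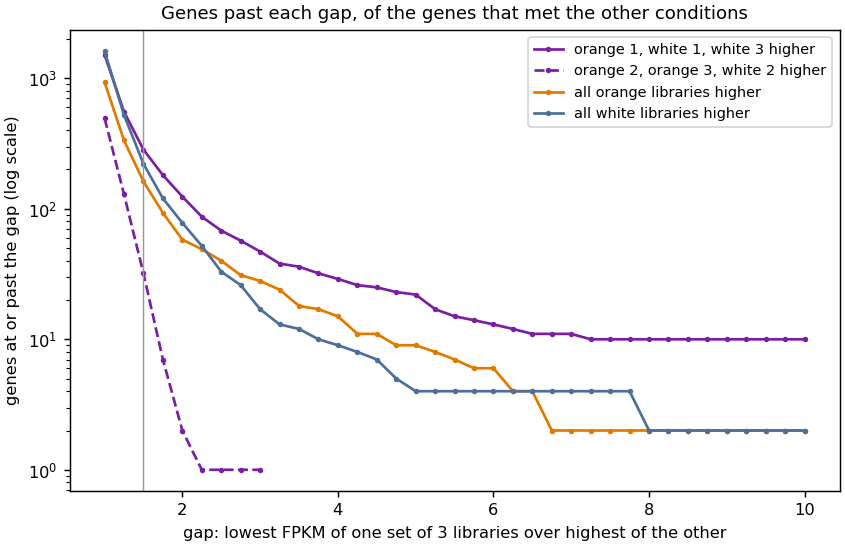
Number of eligible genes (log scale) at or past each gap, the lowest FPKM of one set of 3 libraries over the highest of the other, for sets A and B and for the 2 muscle colours. The curve for genes high in orange 1, white 1 and white 3 runs above the other curves from the threshold of 1.5, marked by the vertical line, and stands at 22 genes at a gap of 5, while the curve for the reverse direction ends at 1 gene.

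Over the 300 genes the gap ran from 1.52 to 35.8, with a median of 1.92. It was 1.95 in the median for the set A genes and 1.61 for the set B genes. The highest library exceeded the lowest by 6.13 times in the median gene, against 2.09 over all eligible genes, a contrast that the choice of the genes creates. The threshold cut through a continuous range. The last genes inside, evm.TU.Contig1235.16 and evm.TU.Contig440.32, both had a gap of 1.52. The nearest ones left out by the limit of 300, evm.TU.Contig1226.6 and evm.TU.Contig108.17, also stood at 1.52, and evm.TU.Contig0.75 and evm.TU.Contig654.28, just under 1.5, had gaps of 1.498 and 1.495.

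**Figure D2:**
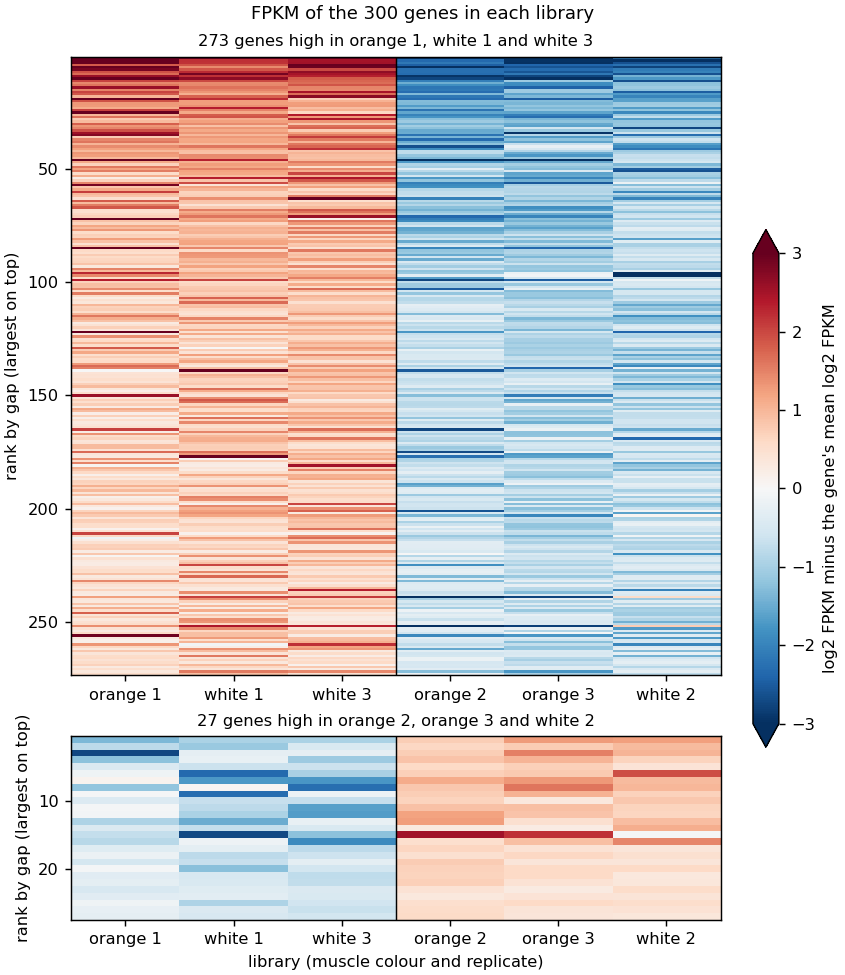
FPKM of the 300 genes in each library as the log2 distance from the gene's own mean, 1 row per gene ordered by gap, with 273 genes high in orange 1, white 1 and white 3 above and 27 high in orange 2, orange 3 and white 2 below. Red stands for higher and blue for lower, the scale ends at 3 in either direction, and single rows stand out in 1 library only.

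Expression of the set A genes was summed to show their weight in each library. Their summed FPKM was 16411 in orange 1, 12232 in white 1 and 12119 in white 3, against 3382 in orange 2, 2950.3 in orange 3 and 3811 in white 2. They held 2.85%, 2.16% and 2.13% of all FPKM in the first 3 libraries and 0.569%, 0.506% and 0.671% in the others. Single abundant genes weigh on such a sum. Without evm.TU.Contig902.28, the most abundant of them, the sum in orange 1 was 13949. The median FPKM over the set A genes was 9.15, 9.71 and 10.2 in orange 1, white 1 and white 3, and 2.35, 2.27 and 2.47 in orange 2, orange 3 and white 2. Orange 1 was thus the highest library in the sum and the lowest of its set in the median. For the 27 set B genes the median was 3.28, 2.17 and 2.26 in orange 1, white 1 and white 3 and 8.31, 9.08 and 7.10 in orange 2, orange 3 and white 2.

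The gene with the largest gap was also the most abundant of the 300. Evm.TU.Contig902.28 had 2462 FPKM in orange 1, 768 in white 1 and 548 in white 3, and 3.23 in orange 2, 1.82 in orange 3 and 15.3 in white 2. It rests on 45511 reads over set A and 251 reads over set B, and its highest library exceeded its lowest by 1352 times. Orange 1 thus lay far above both other orange libraries, and white 2 far below both other white libraries.

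A pair of genes on 1 contig followed. Evm.TU.Contig514.15 had 23.0, 5.78 and 7.16 FPKM in orange 1, white 1 and white 3 and 0.252, 0.164 and 0.107 in orange 2, orange 3 and white 2, a gap of 22.9 that rests on 17 reads over set B. Evm.TU.Contig514.13 had 39.0, 20.9 and 26.7 FPKM in set A and 1.04, 0.565 and 0.758 in set B, a gap of 20.04 with 152 reads over set B. Both were highest in orange 1 and did not overlap between the sets. The genes beside them, looked up after these values were seen, did not share the division. Evm.TU.Contig514.14 between them was at or below 0.0720 FPKM in every library. Evm.TU.Contig514.12 had 42.6, 20.7 and 30.4 FPKM in orange 1, white 1 and white 3 and 22.3, 19.7 and 17.1 in orange 2, orange 3 and white 2, so that its sets overlapped.

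The next genes by gap differed in which library of set A was highest. Evm.TU.Contig105.170 had 4.76, 4.91 and 13.2 FPKM in orange 1, white 1 and white 3 and 0.241, 0.253 and 0.281 in orange 2, orange 3 and white 2 (gap 16.9). Evm.TU.Contig1222.7 had 179.6, 11.2 and 32.0 FPKM in the same order in set A and 0.190, 0.693 and 0.605 in set B (gap 16.1). The first was highest in white 3 and the second in orange 1, where it reached 16.1 times its value in white 1. That spread within set A was as large as the gap itself. Evm.TU.Contig687.19, also highest in orange 1, had 25.97, 13.1 and 14.2 FPKM in set A and 0.758, 0.728 and 0.843 in set B (gap 15.5). Evm.TU.Contig178.35_evm.TU.Contig178.36, a joined identifier of neighbouring gene models, had 3.92, 4.92 and 6.58 FPKM in set A and 0.215, 0.175 and 0.259 in set B (gap 15.2). Evm.TU.Contig449.111 had 2.69, 6.08 and 4.62 FPKM in set A and 0.168, 0.187 and 0.136 in set B (gap 14.4). These last genes had 51 and 42 reads over set B, and evm.TU.Contig1222.7 had 40, of which 5 were in orange 2. The gaps of these genes carry the counting error of small numbers.

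**Figure D3:**
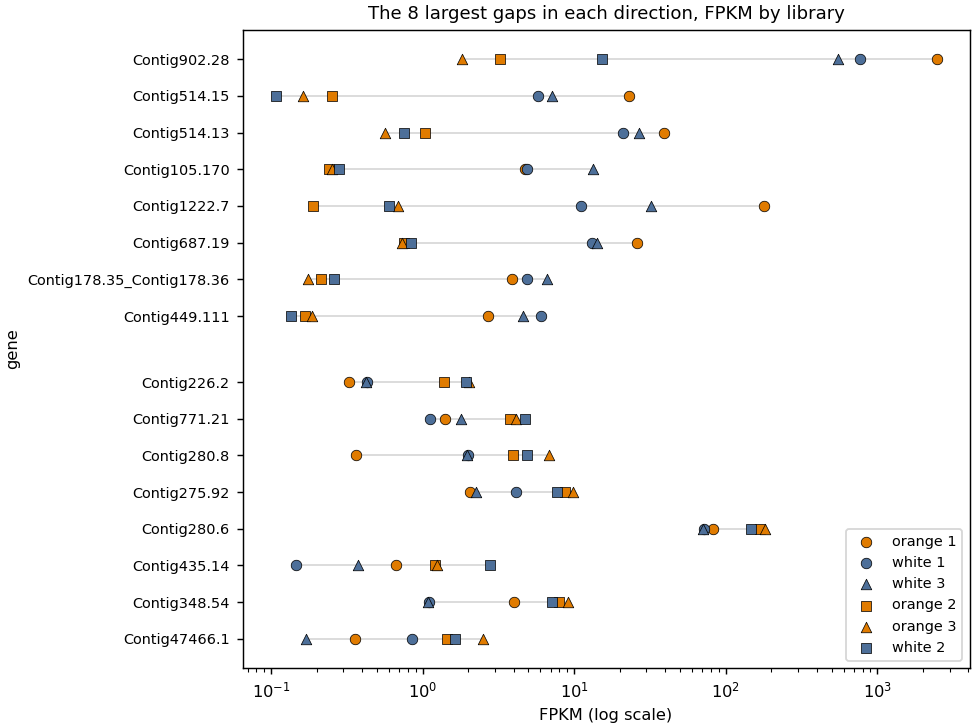
FPKM by library (log scale) of the 8 genes with the largest gap in each direction, coloured by muscle colour and marked by replicate. In the upper 8 genes, orange 1, white 1 and white 3 lie to the right of all other libraries by gaps of 14.4 to 35.8, and in the lower 8 genes orange 2, orange 3 and white 2 lie to the right by gaps of 1.68 to 3.22.

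Abundant genes were not all of this kind. Evm.TU.Contig134.84, the next in abundance after evm.TU.Contig902.28, had 804, 681 and 832 FPKM in orange 1, white 1 and white 3 and 388, 340.1 and 447 in orange 2, orange 3 and white 2. Its gap was 1.52, and it was 1.23 after median-ratio scaling, so that it would not have been chosen. Evm.TU.Contig119.168 had 2064, 896 and 323 FPKM in set A and 39.1, 34.5 and 62.4 in set B, a gap of 5.18. It fell in the order of evm.TU.Contig902.28 within set A, from orange 1 over white 1 to white 3, and like that gene it was highest within set B in white 2. Over all 300 genes, mean FPKM had a median of 6.02, against 5.14 over the eligible genes. Of the eligible genes that averaged 20 FPKM or more, 75 of 1765 (4.25%) were chosen, against 95 of 4094 (2.32%) from 5 to 20 FPKM and 130 of 5652 (2.30%) under 5 FPKM. The mean includes the high values on which the genes were chosen, so that nothing is read from these shares and medians.

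The 27 set B genes had smaller gaps. Evm.TU.Contig226.2 led with 0.327, 0.428 and 0.426 FPKM in orange 1, white 1 and white 3 and 1.38, 2.01 and 1.93 in orange 2, orange 3 and white 2 (gap 3.22), from 30 reads over set A. Evm.TU.Contig771.21 had 1.41, 1.12 and 1.78 FPKM in set A and 3.77, 4.16 and 4.74 in set B (gap 2.11), from 19 reads over set A. Both were close to the level at which a few reads decide the value. The remaining gaps in this direction were under 2. Evm.TU.Contig280.8 had 0.363, 1.99 and 1.98 FPKM in set A and 3.97, 6.88 and 4.89 in set B, and evm.TU.Contig280.6 on the same contig had 82.1, 71.4 and 70.4 FPKM in set A and 168, 182 and 147 in set B. The second is among the better measured of the set B genes, with at least 3396 reads in every library, and its libraries differed by 1.17 times within set A and 1.23 times within set B. The gene between them, evm.TU.Contig280.7, had 2.12, 3.81 and 1.90 FPKM in set A and 5.56, 5.29 and 2.65 in set B, with overlapping sets. On the other side, evm.TU.Contig280.5 had 226, 159.9 and 140.2 FPKM in set A and 421, 412 and 276 in set B, without overlap and with a gap of 1.22, below the threshold. Evm.TU.Contig275.92 had 2.06, 4.16 and 2.26 FPKM in set A and 8.69, 9.82 and 7.73 in set B (gap 1.86). Evm.TU.Contig435.14 had 0.673, 0.145 and 0.375 FPKM in set A and 1.20, 1.25 and 2.79 in set B (gap 1.79). The latter was lowest in white 1 and highest in white 2, so that its extremes came from 1 colour. Evm.TU.Contig47466.1 had 0.360, 0.858 and 0.171 FPKM in set A and 1.44, 2.49 and 1.63 in set B (gap 1.68), with 8 reads over set A.

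The 2 most abundant set B genes varied more within set A than within set B. Evm.TU.Contig52.111 had 196, 129 and 144 FPKM in orange 1, white 1 and white 3 and 309, 340.4 and 309 in orange 2, orange 3 and white 2. Its gap was 1.57, little more than its spread of 1.52 times within set A, and it was 1.44 after median-ratio scaling, under the threshold. Evm.TU.Contig115.111 had 97.0, 84.1 and 72.1 FPKM in set A and 167, 149.8 and 154 in set B (gap 1.54), with a spread of 1.34 times within set A and 1.11 times within set B.

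The genes did not follow 1 profile. Among the set A genes the highest library was white 3 in 101, orange 1 in 87 and white 1 in 85, and the lowest was orange 3 in 114, white 2 in 96 and orange 2 in 63. The combination of white 3 highest and orange 3 lowest was found in 48 genes and that of white 1 highest and orange 2 lowest in 18. Within set A, the ratio of orange 1 to white 1 ran from 0.0741 to 16.1, with a median of 0.964 and quartiles of 0.711 and 1.26. Within set B, the ratio of white 2 to orange 2 ran from 0.133 to 28.9, with a median of 0.977. Among the 22 genes with a gap of at least 5, the ratio of orange 1 to white 1 had a median of 1.37 and ran from 0.442 to 16.1. Their values within set A were thus not in a fixed proportion between the libraries. In 85 of the 273 set A genes the highest library of set A exceeded the lowest of that set by more than the gap, and in 79 the same held within set B. For 6 and 13 of the 27 set B genes the spread on the high and on the low side exceeded the gap.

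Low counts limit a part of the genes. There were 30 genes with fewer than 10 reads in at least 1 library, 24 of them high in set A and 6 in set B, and 70 with fewer than 30. In the median gene the library with the fewest reads had 124.5. With a minimum of 1 FPKM in every library 200 genes passed the gap, 188 of them among the 300. With a mean of 5 FPKM or more these numbers were 178 and 170. With 0.5 added to every FPKM value before the gap was taken, which shrinks the ratios of low genes, 255 passed and 252 were among the 300.

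The rule did not use the order of the colours within a set, but it used the lowest and highest values of the same libraries. The choice can therefore by itself shift the shares below from those of the eligible genes, and how far was not tested. Orange 1 lay above both white 1 and white 3 in 103 of the 300 genes (34.3%, against 24.8% of the eligible genes) and below both in 124 (41.3%, against 49.9%). White 2 lay above both orange 2 and orange 3 in 112 genes (37.3%, against 28.9%) and below both in 109 (36.3%, against 41.0%). The directions differed in this order. Orange 1 lay above both white libraries of its set in 31.9% of the set A genes and 59.3% of the 27 set B genes, and below both in 44.0% and 14.8%. White 2 lay above both orange libraries of its set in 38.8% of the set A and 22.2% of the set B genes, and below both in 35.2% and 48.1%. These shares are counts over genes measured in the same 6 libraries, so that they show the order in these pools only.

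Correlations across genes put the same division in other terms. Over the 300 genes, Pearson's r between log2 FPKM values was 0.923 for orange 1 with white 1 and 0.924 with white 3, against 0.745 with orange 2 and 0.754 with orange 3. Over the other 11211 eligible genes the order was the reverse, with 0.899 and 0.895 for orange 1 with white 1 and white 3 and 0.941 and 0.935 with orange 2 and orange 3. White 2 had an r of 0.935 and 0.933 with orange 2 and orange 3 over the 300 genes, against 0.825 and 0.813 with white 1 and white 3. Over the other eligible genes white 2 differed little between them. Its r was 0.907 and 0.899 with orange 2 and orange 3, and 0.918 with both white 1 and white 3. The contrasts over the 300 genes follow from the choice of the genes, and the libraries' own depth and composition are shared by all genes. In a principal component analysis of the eligible genes without the 300, the first component (40.2% of the variance) placed the orange libraries at 20.4 to 40.7 and the white libraries at -37.2 to -12.2. The second (24.1%) placed orange 2, orange 3 and white 2 at -8.21, 12.9 and 44.6, all above orange 1, white 1 and white 3 at -26.9, -12.5 and -9.94, with orange 2 close to white 3. The third (14.3%) placed white 1 at 29.3, white 3 at -27.1 and the other libraries between -15.3 and 6.52. Without the 300 genes, sets A and B were divided on the second component, by a narrow margin. White 2 and orange 1 lay at its ends, and the sets were not divided on the first or the third. Of all eligible genes, 1518 had a gap above 1 with set A higher and 495 with set B higher. Most of these stay in when the 300 are left out, so that the component is not independent of the division. With the 300 genes included, the second component (25.7%) placed orange 2 at -4.61, below white 1 at -3.78 and white 3 at -0.368. The sets overlapped there, and on the first component (40.5%) orange 1 at 7.37 lay above white 2 at 3.07.

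Orange and white muscle were compared by limma on log2(FPKM + 0.5) over the 15341 genes that averaged 0.5 FPKM or more. Called genes had an adjusted p under 0.05 (Benjamini-Hochberg) and an absolute log2 fold change over 1. Of all tested genes 219 (1.43%) were called, and 2757 (18.0%) had an unadjusted p under 0.05. Of the 300 genes 0 were called and 7 had an unadjusted p under 0.05, with a lowest adjusted p from limma of 0.202. Each set holds libraries of both colours, so the rule forces the orange and white values of a chosen gene to overlap, and nothing is read from these counts. It also fixes most directions, because set A has 1 of 3 orange and 2 of 3 white libraries. Among the set A genes 256 had a log2 fold change below 0, that is, a lower mean of log2 values in orange. In 17 it was above 0, and the median was -0.56. Among the set B genes 1 was below and 26 above 0, with a median of 0.45. The median over the eligible genes was -0.10. The p-values set the difference between the colours only against the spread between these pools within a colour. The rule widens that spread for the chosen genes.

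The fold changes between colours of single genes had wide errors. Evm.TU.Contig1143.2 had the lowest, at -2.83 (standard error 0.98, limma adjusted p = 0.202). Its FPKM was 9.97 in orange 1, 0.222 in orange 2 and 0.544 in orange 3, and 20.5, 6.40 and 19.2 in white 1, white 2 and white 3. White 2 thus lay below orange 1 and well above the other orange libraries, and the spread within set B was 28.9 times. Evm.TU.Contig902.28 had a log2 fold change of -2.76 with a standard error of 2.72 (limma adjusted p = 0.636). Its mean FPKM was nevertheless higher in orange, at 822 against 444 in white, so that the direction depends on the log scale. Evm.TU.Contig412.16 had the highest, at 1.94 (standard error 0.71, limma adjusted p = 0.220). Its FPKM was 0.884 in orange 1, 8.31 in orange 2 and 6.59 in orange 3, and 0.222, 1.41 and 0.617 in white 1, white 2 and white 3. Evm.TU.Contig348.54, at 1.41 (standard error 0.62, limma adjusted p = 0.294), had 3.98, 7.95 and 9.08 FPKM in the 3 orange and 1.11, 7.10 and 1.09 in the 3 white libraries. In both of these genes the colours overlapped because white 2 lay above orange 1. Without white 2, 3 of the 300 genes were called, evm.TU.Contig216.30, evm.TU.Contig348.54 and evm.TU.Contig723.37, against 263 of all 15376 genes tested (1.71%), and 131 of the 300 (43.7%) had an unadjusted p under 0.05, against 20.8% of all. Without orange 1, evm.TU.Contig1143.2 was called (limma adjusted p = 0.0431), against 63 of all 15358 genes tested (0.410%), and 98 of the 300 (32.7%) had an unadjusted p under 0.05, against 15.3% of all. In these fits the rule no longer forces the colours to overlap, since the 2 libraries left of one colour lie in 1 set, and nothing is read from the shares. With any 1 of the other libraries left out, 0 of the 300 were called, against 0.136% to 0.538% of all genes tested. An unadjusted p under 0.05 was found for 0 of them, against 12.2% to 15.0% of all. There each colour still has libraries in both sets, so the rule still forces the overlap and nothing is read from these counts.

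The place of the genes on the contigs was not used to choose them. Identifiers number the genes along each contig, and 35 of the 300 (11.7%) stood next to another chosen gene, in 3 runs of 3 and 13 pairs. In each of these 16 runs and pairs all genes were high in the same set, 14 in set A and 2 in set B. Since 273 of the 300 genes were high in set A, most pairs of chosen genes would agree in direction wherever they lie. Of the 226 eligible genes whose number is next to that of a chosen gene, 35 (15.5%) were themselves chosen, against 2.61% of all eligible genes. Neighbouring gene models can overlap or be parts of 1 gene, and how reads were divided between them is not given in the sources used here, so that the count cannot be read as separate genes. Among the 100 genes with the largest gaps 2 stood next to each other, where a shorter list leaves fewer neighbours by itself. Chosen genes were found on 207 of 1140 contigs with an eligible gene, with 2 or more on 58 contigs and 4 or more on 8.

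The run on contig 110 was the most abundant. Evm.TU.Contig110.20 had 164, 179.7 and 175 FPKM in orange 1, white 1 and white 3 and 86.2, 71.7 and 76.6 in orange 2, orange 3 and white 2. Evm.TU.Contig110.21 had 101, 98.8 and 81.1 FPKM in set A and 49.5, 40.1 and 35.9 in set B, and evm.TU.Contig110.22 had 73.0, 60.7 and 51.1 FPKM in set A and 32.0, 27.2 and 19.6 in set B. The 3 genes had gaps of 1.91, 1.64 and 1.60, and all had at least 2429 reads in every library. The order within the sets was not the same along the run, with white 1 highest in the first gene and orange 1 in the others. On contig 223, evm.TU.Contig223.10, evm.TU.Contig223.11 and evm.TU.Contig223.12 had 2.19 to 6.37 FPKM in set A and 0.308 to 1.49 FPKM in set B, with gaps of 3.16, 1.88 and 1.60. They had as few as 5 reads in a library. On contig 227, evm.TU.Contig227.126 had 1.57, 3.88 and 2.52 FPKM in set A and 0.835, 0.964 and 0.946 in set B, and evm.TU.Contig227.127 had 11.7, 12.9 and 8.96 FPKM in set A and 5.62, 4.10 and 5.52 in set B. Evm.TU.Contig227.128, the most abundant of this run, had 39.7, 38.9 and 39.1 FPKM in set A and 16.7, 23.0 and 15.6 in set B. Its set A libraries agree within 1.02 times, the closest among the genes named here. After median-ratio scaling the gaps of this run were 1.44, 1.36 and 1.27, all under the threshold, and that of evm.TU.Contig110.22 was 1.46.

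**Figure D4:**
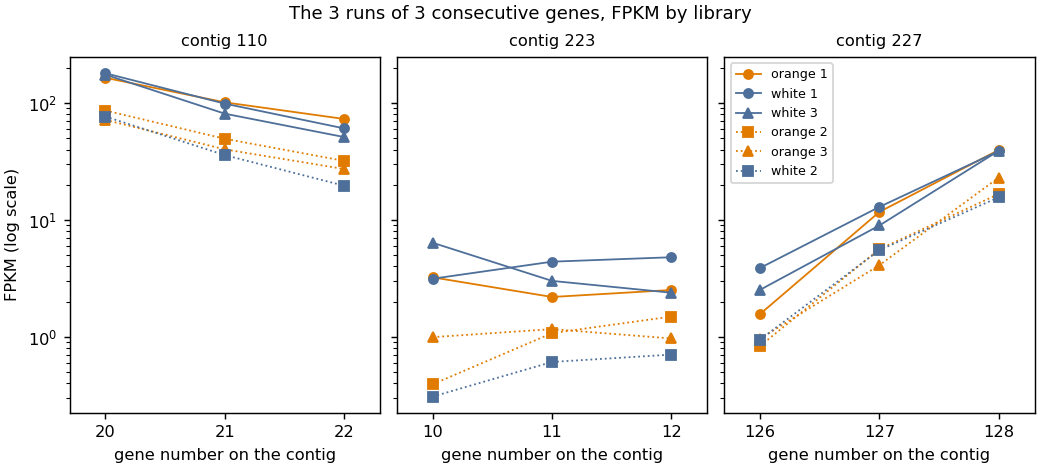
FPKM (log scale) of the 3 runs of 3 consecutive genes by library, with solid lines for orange 1, white 1 and white 3 and dotted lines for orange 2, orange 3 and white 2. At each of the 9 genes all solid lines lie above all dotted lines, by gaps of 1.59 to 3.16.

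Contig 677 held the highest share among the 8 contigs with 4 or more chosen genes, 4 of its 17 eligible genes (23.5%), and is described because of that share. Evm.TU.Contig677.23 had 40.3, 28.5 and 15.6 FPKM in orange 1, white 1 and white 3 and 0.664, 0.488 and 1.34 in orange 2, orange 3 and white 2 (gap 11.7). Evm.TU.Contig677.18 had 8.86, 12.7 and 9.80 FPKM in set A and 1.81, 2.46 and 3.97 in set B (gap 2.23). The other chosen genes there, evm.TU.Contig677.17 and evm.TU.Contig677.21, had gaps of 1.58 and 1.81. The gene evm.TU.Contig677.25 nearby had 23.0, 24.1 and 12.4 FPKM in set A and 0, 0.196 and 1.41 in set B, and stayed out only because orange 2 was at 0. Other genes of the stretch, evm.TU.Contig677.19 and evm.TU.Contig677.20, were at or near 0 in every library. On contigs 144, 225 and 42, with 7 of 89, 6 of 83 and 6 of 92 eligible genes, the shares were 7.87%, 7.23% and 6.52%, and all of these genes were high in set A. So were 273 of all 300 chosen genes.

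Gene length, as recovered from the spacing of the FPKM values, had a median of 2204 bases over the 300 genes and 2004 over the eligible genes. Joined identifiers of 2 or more gene models made up 4 of the 300 (1.33%) and 138 of the eligible genes (1.20%).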

How the data were processed

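RNA of 6 pools of adductor muscle was sequenced. The authors used HISAT2 2.0.4 for the alignment to a bay scallop genome that is not published, counted reads per gene with HTSeq 0.9.1 and deposited FPKM values, 1 table per library (the versions are those in the submitters' processing notes). For the annotation version, strandedness and counting mode, nothing is given in the sources used here. The muscle colour in the labels grouped the libraries. Read numbers and gene lengths were recovered from the spacing of the FPKM values, which are whole multiples of 1 read per gene, with the smallest fitting length between 100 and 60000 bases. The recovered reads add up to 99.6% to 99.7% of the totals, so some low counts may be understated by a common divisor. They served only for the depth behind a value.

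Genes were chosen by the gap rule in Python 3.11.15 (numpy 2.4.6, pandas 2.3.3). Limma 3.58.1 in R 4.3.3 compared the colours on log2(FPKM + 0.5), allowing for a trend of the variance with the mean, and used Benjamini-Hochberg adjustment. Fold changes on this scale understate the change of low genes. The scripts for reads and for limma were tested on simulated data.

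The genes, and the rule for those named, were chosen with earlier results of these data known. The rule names the 8 largest gaps and the 3 highest means in each direction, up to 3 longest runs of at least 3 consecutive genes, the genes nearest the threshold on both sides, and the 2 genes with the largest log2 fold change between colours in each direction. Genes of contigs 514, 280 and 677 beside these, and 3 genes called without 1 library, were named after their values were seen. Alternatives were pseudocounts of 0.1 and 1, other minimum levels, median-ratio scaling, no trend, a replicate block, other definitions of neighbours and each library left out. Intervals for counting error were not computed, because FPKM values were described per pool. A count test on recovered reads was not run.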

Additional observations from a re-analysis of the deposited data

Results flagged for a closer look

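Some genes that the rule leaves out also passed the gap between sets A and B. Of the 267 annotated genes that averaged 1 FPKM or more but were under 0.1 FPKM in at least 1 library, 31 (11.6%) passed the gap, 28 of them high in set A and 3 in set B. The same gap between the colours was passed by 83 of them (31.1%). A library at or near 0 makes a large gap easy to reach, so that these shares cannot be set beside that of the eligible genes. Such genes also reach the mean of 1 FPKM only through the libraries where they are high. Evm.TU.Contig0.309 had 0.736, 27.4 and 23.9 FPKM in orange 1, white 1 and white 3 and 0, 0.316 and 0.304 in orange 2, orange 3 and white 2. Its value in orange 1 was thus closer to those of set B than to white 1 and white 3. Evm.TU.Contig275.13 had 9.51, 12.1 and 19.0 FPKM in set A and 0.00992, 0.00859 and 1.36 in set B, where orange 2 and orange 3 had 1 read each and white 2 had 121.

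Gene models whose identifiers lack the evm prefix of the annotation were outside the rule too. Of 1316 that met its other conditions, 22 (1.67%) passed the gap, 18 high in set A and 4 in set B, while 126 (9.57%) passed it between the colours. The same shares over the eligible genes were 2.75% and 3.33%. Novel00836 had 10.4, 14.9 and 11.9 FPKM in orange 1, white 1 and white 3 and 0.647, 0.517 and 1.24 in orange 2, orange 3 and white 2 (gap 8.34). Novel01454 had 180.1, 219 and 144 FPKM in set A and 9.06, 7.43 and 39.6 in set B (gap 3.63). These genes were named after their values were seen.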

How the results depend on the processing

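The number of genes past the gap was 316, and 200 with 1 FPKM or more in every library and 178 with a mean of 5 FPKM or more, where fewer genes are eligible. Leaving out single libraries leaves 2 in a set and eases the rule by construction, and gave 428 to 835, with 835 without orange 1, 657 without orange 2 and 630 without white 2. Genes next to another chosen gene numbered 35, 48 with numbers up to 2 apart, 43 after median-ratio scaling and 2 among the 100 largest gaps. Of the 33 genes named by rule, 24 still had a gap of at least 1.5 after that scaling, and those under it included evm.TU.Contig1235.16 (1.44), evm.TU.Contig440.32 (1.46) and evm.TU.Contig1143.2 (1.48). Calls between the colours over all genes fell from 219 to 66 without a filter and 30 when the mean had to reach 5 FPKM, and ranged from 21 to 263 with each library left out. Among the 300 genes they ranged from 0 to 3 in the same way, and were 0 under every other alternative. The replicate numbers did not settle whether libraries are paired. Libraries that share a number had deviations from their colour mean with an r of 0.230, 0.151 and -0.189. For orange 1 and orange 2 this was the highest r with a white library, while orange 3 had 0.270 with white 2. Under a replicate block 187 of all genes (1.22%) were called and 0 among the 300, whose lowest limma adjusted p was 0.0561. An unadjusted p under 0.05 was found for 63 of the 300 (21.0%), against 16.2% of all genes tested. Depth limits the 30 genes with fewer than 10 reads in a library. The cause of each change was not tested.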

Other observations

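Deviations of each library from its colour's mean of log2(FPKM + 0.5) were compared across genes that could not be chosen. Over the 1316 gene models without the evm prefix, Pearson's r between an orange and a white library of the same set was 0.217 (orange 1 with white 1), 0.0195 (orange 1 with white 3), 0.0849 (orange 2 with white 2) and 0.141 (orange 3 with white 2). Between libraries of different sets it ran from -0.207 to 0.0592, and the value for orange 2 with white 3 was the only one above 0. Over the 100 most abundant genes it ran from 0.190 to 0.705 within the sets and from -0.691 to -0.0348 between them. The deviations within a colour add up to 0, so the 9 values of each list depend on each other, and the genes share the libraries' scaling, whose part was not tested. Of these 100 genes 1 passed the gap of 1.5.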
